A study of Mus musculus with 4 samples.

Results

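The genes described here are 10 genes of the cardiac intercalated disc and of its Xin repeat proteins, taken from the 29595 rows of the deposited read table as the rows named Xirp1, Xirp2, Nrap, Enah, Vcl, Cdh2, Dsp, Pkp2, Jup and Gja1. Each name had 1 row, and all 10 were among the 16128 rows with enough reads to be tested. The right ventricle was sequenced from 4 adult mice of a mixed C57BL/6 background, 2 Ezh2-deficient (mutant 1 and mutant 3) and 2 wild type (wild type 1 and wild type 2). Ezh2 is the histone methyltransferase of Polycomb repressive complex 2. The labels give neither the deleted part of the gene nor the cells in which it was deleted. Where 4 values follow each other, they are given in the order mutant 1, mutant 3, wild type 1, wild type 2, called here library order. The libraries, from polyadenylated RNA, were treated with a duplex-specific nuclease that removes part of the reads of abundant transcripts, so levels of different genes are not compared here, and differences of abundant genes may be compressed.

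The intercalated disc is the end-to-end contact of heart muscle cells, where adherens junctions anchor the actin of the last sarcomere, desmosomes anchor desmin filaments and gap junctions pass current. N-cadherin (Cdh2) holds neighbouring membranes together and reaches actin through catenins, plakoglobin (Jup) and vinculin (Vcl). Desmoplakin (Dsp) and plakophilin-2 (Pkp2) build the desmosomal plaque, and connexin-43 (Gja1) is the main gap junction channel of the ventricle. The Xin repeat proteins Xirp1 and Xirp2 bind actin filaments at the disc, while Nrap, a nebulin-related LIM protein, and Enah, an Ena/VASP factor that favours growth of actin filaments, act where the myofibril meets the junction.

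The 4 libraries held 18177642 to 23853394 reads, and the 10 genes took 0.196% to 0.237% of them, with 1003 to 13799 reads per gene and library. Mitochondrial rows took 40.3% and 47.3% of the reads in mutant 1 and mutant 3, and 34.7% and 41.2% in wild type 1 and wild type 2. The row of Ezh2 had 73, 70, 77 and 67 reads in library order, which does not check the labels, since reads from a remaining part of the gene or from other cells count alike. Reads of the Y-linked gene Ddx3y were 754, 659, 2 and 2 in library order, so sex and genotype cannot be told apart in any comparison below. In bulk tissue, fewer cells of a type and less RNA per cell cannot be told apart either. Cardiomyocyte markers were present in all libraries, with 737160 to 988989 reads summed over 6 genes (Myh6, Tnnt2, Tnni3, Ryr2, Actc1 and Myl2). These genes went opposite ways. By log2 fold change Myl2 was at 0.87 and Tnnt2 at 0.51, with both mutants above both wild types in TMM-scaled CPM. Ryr2 was at -0.60 and Myh6 at -0.30, with both mutants below. For Tnni3 and Actc1 the groups overlapped. None of the 6 passed the test, and 44.8% of all tested rows had groups that did not overlap.

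Sequence upstream of the start site is shown for the 3 genes with the smallest p-values, to set Xirp2, with the largest difference, beside Enah and Vcl. Each is the 250 bases before the RefSeq start, read along the gene, from the GRCm38.p6 table (chr2:67445752-67446001 on the plus strand for Xirp2, chr1:182019981-182020230 on the minus strand for Enah and chr14:20929148-20929397 on the plus strand for Vcl). The reads were aligned to the older build mm9, so these positions are not those of the count rows. Capitals mark motif matches on either strand.
Xirp2: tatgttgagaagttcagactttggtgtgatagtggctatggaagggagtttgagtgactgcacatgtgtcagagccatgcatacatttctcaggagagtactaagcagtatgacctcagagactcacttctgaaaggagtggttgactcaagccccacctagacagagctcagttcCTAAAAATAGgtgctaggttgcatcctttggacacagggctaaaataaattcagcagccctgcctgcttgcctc
Enah: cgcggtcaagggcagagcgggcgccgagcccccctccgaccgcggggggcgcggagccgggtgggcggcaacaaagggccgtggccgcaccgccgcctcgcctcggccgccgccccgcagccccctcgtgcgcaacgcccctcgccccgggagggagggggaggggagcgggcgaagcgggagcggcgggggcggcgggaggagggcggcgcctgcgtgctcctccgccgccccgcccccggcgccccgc
Vcl: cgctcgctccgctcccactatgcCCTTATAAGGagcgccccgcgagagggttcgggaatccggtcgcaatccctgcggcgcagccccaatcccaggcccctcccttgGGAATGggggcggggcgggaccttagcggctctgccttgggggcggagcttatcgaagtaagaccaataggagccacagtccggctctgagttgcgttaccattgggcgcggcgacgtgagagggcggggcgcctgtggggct
The Xirp2 window held 1 MEF2 motif, CTAAAAATAG, at bases 74 to 65 before the start. MEF2 factors are muscle transcription factors, and Xirp2 has been described in mouse as a MEF2A target. The Vcl window held 1 CArG box, the motif of serum response factor, as CCTTATAAGG at bases 227 to 218. It also held 1 MCAT motif (CATTCC, on the opposite strand) at bases 143 to 138. The Enah window, with 84.8% G and C against 46.8% for Xirp2 and 67.2% for Vcl, held none of the 5 motifs searched, which also included AGATAA for GATA factors and TATAAA for the TATA box. No match overlapped another motif. Among the 250-base windows of all 32851 promoter rows, 2.92% held a MEF2 motif, 1.47% a CArG box, 12.6% CATTCC, 9.99% AGATAA and 12.4% TATAAA. RefSeq promoter rows were found for 7 of the 10 genes; Xirp1, Cdh2 and Pkp2 are named only. A match describes letters and is not a test of binding.

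Across the 10 genes the mutant ventricles showed no common direction. By the log2 fold change, 5 genes were higher and 5 lower in the mutants, beside 50.4% of all tested rows above 0, with a median of -0.002 against 0.005 over all tested rows. With edgeR's quasi-likelihood test, 0 of the 10 had an adjusted p under 0.05, where 0.13% of all tested rows did. The count was also 0 with DESeq2, which called 1.41% of rows, and with limma-voom, which called 0.0868%. At an unadjusted p under 0.05 there were 2 of the 10, Xirp2 and Enah, both higher, beside 10.9% of all tested rows (6.49% higher). In TMM-scaled CPM, 4 genes (Xirp2, Nrap, Enah and Dsp) had both mutants above both wild types, as did 22.3% of tested rows. In 3 genes (Vcl, Cdh2 and Jup) both mutants lay below on that scale, as did 22.4%. The groups overlapped for Xirp1, Pkp2 and Gja1, and 44.8% of all tested rows had groups that did not overlap. With 2 libraries against 2 there are 3 ways to split them, so an exact permutation test cannot give a two-sided p under 0.333.

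**Figure D1:**
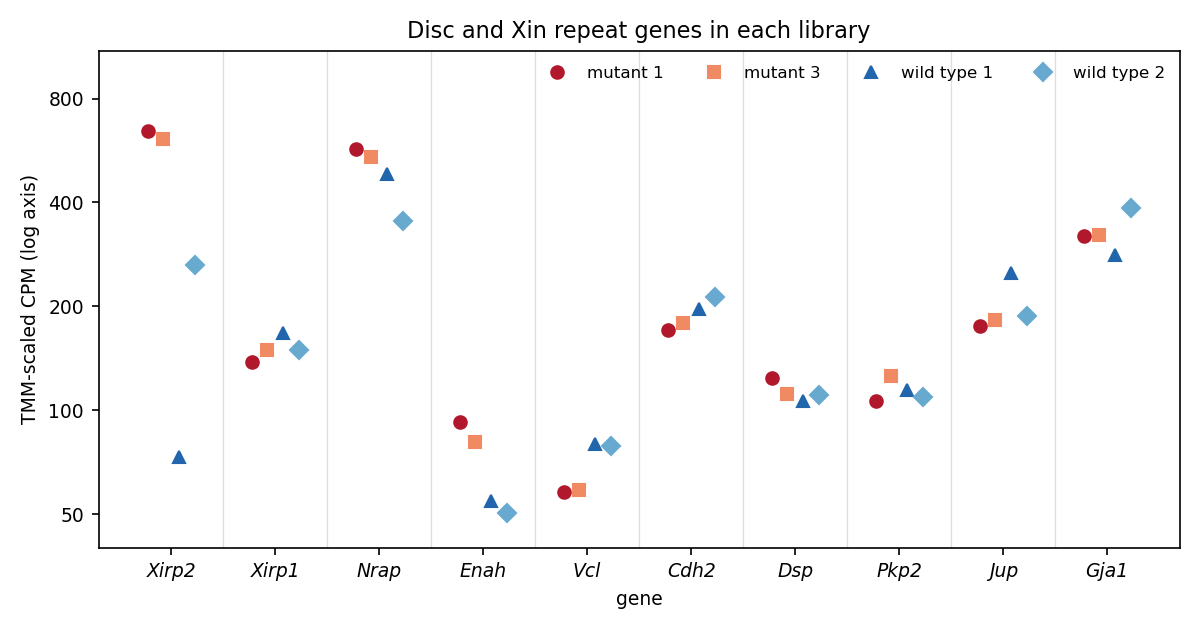
Level of each gene in each library, as TMM-scaled CPM on a log axis; each point is 1 library. Xirp2 spans 73.5 CPM in wild type 1 to 644 CPM in mutant 1, while the points of Xirp1, Dsp and Pkp2 lie close together.

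The Xin repeat gene Xirp2 showed the largest difference of the 10. Its row (mm9 chromosome 2, 67284059 to 67364663) had 13799 reads in mutant 1, 12060 in mutant 3, 1651 in wild type 1 and 5239 in wild type 2. The mutants were close to each other and above both wild types, and wild type 1 was far below wild type 2. In TMM-scaled CPM, mutant Xirp2 stood at 627 ± 22.9 (SD, n = 2) and wild-type Xirp2 at 168 ± 134. This gave a log2 fold change of 1.90 ± 0.52 (SE), or 3.73-fold, with a 95% interval of 0.70 to 3.09 (edgeR adjusted p = 0.266, unadjusted p = 0.00647). Its size depended on the wild type: the log2 fold change was 1.25 without wild type 1 (adjusted p = 0.000398) and 3.09 without wild type 2 (adjusted p = 7.44e-07). Each of these rests on 1 wild-type heart, and 12.2% and 22.0% of all tested rows passed there. Leaving out mutant 1 gave 1.87 and leaving out mutant 3 gave 1.95, each resting on 1 mutant heart. Xirp2 passed in both fits, where 0.381% and 0.653% of rows passed. Its SE in both was 0.417, close to the 0.42 of Xirp1, whose wild types lay close together. With all 4 libraries the SE was 0.52 for Xirp2 and 0.21 for Xirp1. These passes therefore do not set Xirp2 against the gap between its own wild types, and only the sizes are read. With all 4 libraries, Xirp2 passed under total-count scaling (0.967% of rows passed) and with no filter on low counts (1.44%). It also passed with a correction for GC content and transcript length (0.465%). The edgeR adjusted p was 0.0260, 0.00189 and 0.0474 in that order. The SE of Xirp2 was 0.386, 0.355 and 0.275 there, below the 0.52 of the main fit, so these passes rest on a smaller estimate of its spread.

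Among the 10 genes, the wild types lay furthest apart for Xirp2. Wild type 2 was 3.59 times wild type 1 for Xirp2 in TMM-scaled CPM, and 4.23% of tested rows showed a larger difference between these libraries. For the other 9 genes the wild types differed at most 1.37-fold, and the mutants differed at most 1.18-fold for all 10. The authors' deposited table gives Xirp2 ratios of 7.74 and 6.15 for mutant 1 and mutant 3 over wild type 1. Over wild type 2, the ratios in the authors' deposited table were 2.21 and 1.75. Over the 15 alternatives of test, scaling, filter and libraries, the log2 fold change of Xirp2 ran from 1.25 to 3.09, above 0 in each, and the adjusted p from 7.44e-07 to 0.399.

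Xirp1, the other Xin repeat gene, was at a similar level in both groups. Its row (chromosome 9, 119922873 to 119932687) had 2963 and 2959 reads in mutant 1 and mutant 3 and 3774 and 2980 in wild type 1 and wild type 2. The levels overlapped between the groups, at 144 ± 8.32 against 159 ± 12.8 CPM (SD, n = 2). The log2 fold change of -0.14 ± 0.21 (SE) had a 95% interval of -0.62 to 0.34 (adjusted p = 0.842). With the GC and length correction the Xirp1 value turned to 0.087. A difference between the fold changes of Xirp1 and Xirp2 was not tested. The ratio of Xirp2 to Xirp1 reads, which does not depend on how libraries are scaled, was 4.66 in mutant 1, 4.08 in mutant 3, 0.438 in wild type 1 and 1.76 in wild type 2. The ratio was higher in both mutants than in both wild types, and lowest in wild type 1; only its differences between libraries are read here, not which gene is the more abundant. These ratios of gene pairs were chosen after the values were seen and carry no test.

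**Figure D2:**
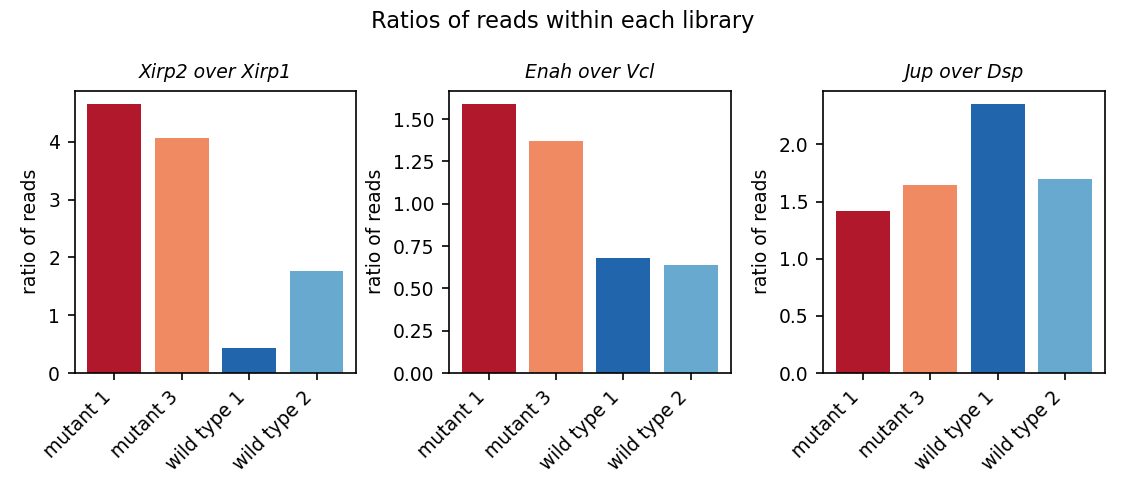
Ratio of reads of a pair of genes within each library, with 1 bar per library. The Xirp2 to Xirp1 ratio is 4.66, 4.08, 0.438 and 1.76 in library order, and the Enah to Vcl ratio is higher in both mutants than in both wild types.

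Fast skeletal muscle genes, whose tissue also uses Xirp1, Xirp2 and Nrap, were high in mutant 1. Their summed level over 8 genes was 291, 46.9, 24.7 and 28.9 CPM in library order. The log2 fold change was above 0 in 8 of 8, and none of the 8 was at 0 reads. Both mutants were above both wild types in only 2 of them, Tnnt3 and Myh4, beside 22.3% of all tested rows. In the others the groups overlapped, and for Tnni2, Myh1 and Pvalb mutant 3 was below both wild types. The troponin gene Tnnt3, for example, had 1516, 20, 8 and 5 reads in library order. The myosin gene Myh4 of the same list was high in both mutants, with 951, 655, 224 and 238 reads. In CPM, Myh4 stood at 44.4, 33.2, 9.97 and 12.0 (edgeR adjusted p = 0.0638), and it made up most of the sum in mutant 3. Xirp2 was at 643 and 611 CPM in mutant 1 and mutant 3. Without mutant 1 its log2 fold change was 1.87, resting on 1 mutant heart. Atrial cardiomyocyte genes were also higher in both mutants. Summed over 4 genes (Myl4, Myl7, Sln and Nppa) they stood at 3450 and 3082 CPM in mutant 1 and mutant 3. The sums were 431 and 178 in wild type 1 and wild type 2. All 4 had both mutants above both wild types, as did 22.3% of all tested rows. Nppa, also a stress gene of the ventricle, made up most of each sum (3310, 2970, 375 and 173 CPM in library order). It passed the test, at an edgeR adjusted p of 0.0316. Myl4, Myl7 and Sln did not pass (adjusted p of 0.377 to 0.514), and their wild type 1 was 8.24 to 22.6 times wild type 2. Myl7, for example, had 665 reads in wild type 1 and 54 in wild type 2. The part of the fast skeletal muscle and atrial genes in the Xirp2 result was not tested.

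Enah, which speeds the growth of actin filaments, was the second gene with an unadjusted p under 0.05. The row (chromosome 1, 183834576 to 183950111) had 1983 and 1595 reads in mutant 1 and mutant 3 and 1227 and 1003 in wild type 1 and wild type 2. Both mutants lay above both wild types, and the wild types were close to each other. Levels were 86.7 ± 8.24 against 52.5 ± 2.95 CPM (SD, n = 2), a log2 fold change of 0.72 ± 0.21 (SE) or 1.65-fold, with a 95% interval of 0.24 to 1.20. The edgeR adjusted p was 0.287 (unadjusted p = 0.00860). The log2 fold change was 0.78 without wild type 1 and 0.66 without wild type 2. It was 0.66 without mutant 1 and 0.85 without mutant 3, and each of these fits rests on 1 heart in a group. With the GC and length correction the value was 0.57 ± 0.29 (SE, edgeR adjusted p = 0.435). In all 15 alternatives the log2 fold change of Enah was above 0, between 0.44 and 0.85.

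Nrap, which anchors actin filaments at the disc and is known for its part in myofibril assembly, had 12239 and 10717 reads in mutant 1 and mutant 3 and 10839 and 7013 in wild type 1 and wild type 2 (chromosome 19, 56394532 to 56464525). In reads, mutant 3 was just below wild type 1, while in TMM-scaled CPM it was above it (543 against 482). The scaled levels of the groups were 557 ± 19.6 against 418 ± 91.7 CPM (SD, n = 2), with a log2 fold change of 0.42 ± 0.25 (SE, adjusted p = 0.587). The value depended on the wild type, at 0.66 without wild type 1 and 0.20 without wild type 2. The span of Nrap shares 48 bases with Habp2 on the opposite strand, and whether counting used strand is not given in the sources. Habp2, named for that overlap, had 974, 1027, 631 and 362 reads in library order.

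**Figure D3:**
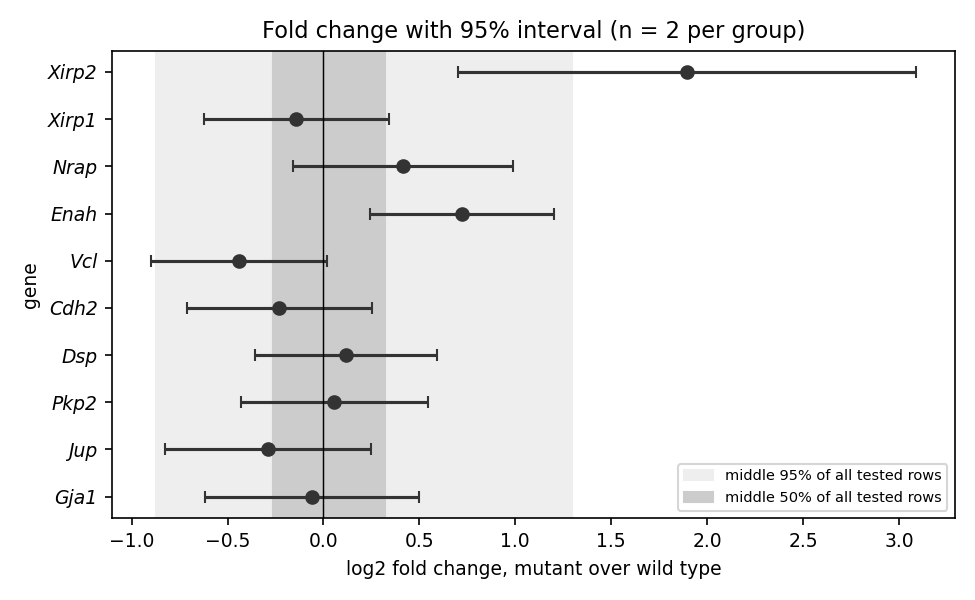
Log2 fold change of each gene, mutant over wild type, with its 95% interval from edgeR's quasi-likelihood fit; grey bands show the middle 50% and 95% of all tested rows. The intervals of Xirp2 (0.70 to 3.09) and Enah (0.24 to 1.20) lie above 0, and the other 8 intervals cross 0.

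Of the adherens junction genes, vinculin showed the larger difference, in the opposite direction to Enah. Vcl (chromosome 14, 21748655 to 21852895) had 1247 and 1163 reads in mutant 1 and mutant 3 and 1801 and 1566 in wild type 1 and wild type 2. The libraries of each group lay close together and the groups did not overlap, at 58.5 ± 0.553 against 79.4 ± 0.989 CPM (SD, n = 2). Here the log2 fold change of -0.44 ± 0.20 (SE) had a 95% interval of -0.90 to 0.02 and an adjusted p of 0.478 (unadjusted p = 0.0587). It was below 0 in all 15 alternatives, between -0.73 and -0.31, and passed only without wild type 2, in a fit resting on 1 wild-type heart. The ratio of Enah to Vcl reads was 1.59 and 1.37 in mutant 1 and mutant 3 and 0.681 and 0.641 in wild type 1 and wild type 2.

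N-cadherin, the adhesion molecule of the same junction, had 3656, 3533, 4428 and 4239 reads in library order (Cdh2, chromosome 18, 16747518 to 16967755). The scaled levels did not overlap but were near each other, at 175 ± 6.04 against 205 ± 11.4 CPM (SD, n = 2). Its log2 fold change was -0.23 ± 0.21 (SE), with a 95% interval of -0.71 to 0.25 (adjusted p = 0.719).

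The desmosomal genes differed by no more than the spread between hearts. Plakoglobin, which is shared by desmosomes and adherens junctions, had 3764 and 3618 reads in mutant 1 and mutant 3 and 5624 and 3741 in wild type 1 and wild type 2 (Jup, chromosome 11, 100231933 to 100259053). Scaled, wild type 1 stood apart at 250 CPM, and wild type 2, at 188, was close to mutant 3, at 183. The log2 fold change of -0.29 ± 0.23 (SE, adjusted p = 0.686) was -0.49 without wild type 2 and -0.07 without wild type 1. The ratio of Jup to Dsp reads was likewise highest in wild type 1, at 2.35, against 1.42, 1.64 and 1.70 in mutant 1, mutant 3 and wild type 2.

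Desmoplakin, the link to desmin filaments, appeared as 2 rows of cDNA clones, which are not read here as counts of the whole gene. The row named Dsp is a cDNA fragment of 2462 bases (chromosome 13, 38284373 to 38286834), with 2661, 2203, 2390 and 2205 reads in library order. In scaled values, both mutants (124 and 112 CPM) were just above both wild types (106 and 111), with a log2 fold change of 0.12 ± 0.20 (SE, adjusted p = 0.865). A second desmoplakin row, BC033467, shares 1096 bases with it and had 5137, 3662, 4948 and 4331 reads. There the groups overlapped, and the log2 fold change was -0.04 ± 0.23 (SE, adjusted p = 0.960). The deposited table describes both rows as cDNA clone sequences of desmoplakin, and the direction of the Dsp row turned with total-count scaling, to -0.16.

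Pkp2, the plakophilin of the cardiac desmosome (chromosome 16, 16213438 to 16272805), had 2285, 2486, 2573 and 2173 reads in library order. The groups overlapped, at 116 ± 13.7 against 112 ± 3.70 CPM (SD, n = 2), with a log2 fold change of 0.06 ± 0.21 (SE) and a 95% interval of -0.43 to 0.54 (adjusted p = 0.946). The sign turned with total-count scaling (-0.24) and without mutant 3 (-0.033).

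For connexin-43, the gap junction channel, the groups overlapped. Gja1 (chromosome 10, 56097079 to 56110223) had 6848, 6339, 6331 and 7683 reads in library order. Scaled, both mutants (319 and 321 CPM) lay between wild type 1 at 282 and wild type 2 at 386. Its log2 fold change was -0.06 ± 0.24 (SE, edgeR adjusted p = 0.948), with a 95% interval of -0.62 to 0.50. Changes of a size within that interval, in either direction, are not excluded. Without wild type 2 the sign turned, to 0.18.

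Other genes of the disc were read from 6 lists of partners with 43 genes, of which 42 were tested and Gjc1, with 3 to 5 reads per library, was not. By edgeR over all rows 0 of the 42 passed, as by DESeq2 and limma-voom. At an unadjusted p under 0.05 there were 2, both lower, which is a smaller share than the 10.9% of all tested rows. Over the 42, 18 were higher and 24 lower in the mutants, with a median log2 fold change of -0.13; with total-count scaling 5 were higher and 37 lower, with a median of -0.41 beside -0.28 over all rows. The adherens and tight junction partners leaned lower, with 8 of 8 log2 fold changes below 0 and a median of -0.39 (6 of 8 with the GC and length correction). The actin-linking alpha-catenin gene Ctnna1 was at 244 ± 5.37 against 325 ± 5.05 CPM (SD, n = 2; adjusted p = 0.532). Ctnnd1, p120-catenin, which holds cadherin at the membrane, was at 77.2 ± 1.82 against 101 ± 2.24 CPM (adjusted p = 0.539). Neither passed.

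The 2 partners with an unadjusted p under 0.05, fewer than the share of all rows would give, were the desmosome genes Dsg2 and Pkp4. Dsg2, the desmosomal cadherin of heart muscle, had 640 and 482 reads in mutant 1 and mutant 3 and 932 and 1034 in wild type 1 and wild type 2. Both mutants were below both wild types, at 27.1 ± 3.83 against 46.7 ± 7.44 CPM (SD, n = 2), with a log2 fold change of -0.78 ± 0.23 (SE, adjusted p = 0.302). Pkp4, a plakophilin relative, was at 47.4 ± 5.16 against 67.1 ± 0.251 CPM (adjusted p = 0.443). The other 3 members were Dsc2 and Perp, with overlapping groups, and the desmin gene Des, at 1110 ± 120 against 869 ± 290 CPM, also overlapping. Of the 5, 1 was higher and 4 were lower.

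Partners of the Xin proteins and Nrap leaned the other way, with 5 of 5 log2 fold changes above 0, from 0.20 to 0.45, and a median of 0.28; with total-count scaling 2 of 5 were above 0. Kbtbd10, which encodes an Nrap-binding kelch protein, was at 86.7 ± 5.73 against 63.6 ± 6.06 CPM (SD, n = 2; adjusted p = 0.492). Csrp3, the muscle LIM protein gene, was at 805 ± 1.70 against 650 ± 57.4 CPM (adjusted p = 0.665). Among the gap junction and disc membrane partners, 1 of 6 was higher and 5 lower. Cxadr, the coxsackievirus and adenovirus receptor of the disc, was at 46.4 ± 0.643 against 33.8 ± 11.4 CPM (adjusted p = 0.579), and Ank2, ankyrin-B, at 69.8 ± 2.11 against 87.9 ± 17.8 CPM (adjusted p = 0.631).

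The actin assembly partners split 5 higher to 4 lower, but 0 to 9 with total-count scaling and 3 to 6 without wild type 2. Enah's relatives Vasp and Evl had log2 fold changes of 0.17 and 0.18 and overlapping groups. The 2 of smallest p were Fblim1, which encodes the filamin-binding LIM protein migfilin, at 105 ± 8.22 against 137 ± 25.7 CPM (SD, n = 2; adjusted p = 0.584), and Lasp1, at 29.3 ± 1.69 against 33.6 ± 6.71 CPM (adjusted p = 0.792). The vinculin and integrin partners split 6 higher to 3 lower, but 1 to 8 with total-count scaling, 4 to 5 without wild type 2 and 4 to 5 without sex-linked, mitochondrial and abundant rows. Sorbs2, an adaptor that binds vinculin, was at 233 ± 16.5 against 172 ± 3.83 CPM (adjusted p = 0.505). Tln2, the talin of muscle junctions, was at 41.6 ± 5.77 against 57.4 ± 7.96 CPM (adjusted p = 0.508). The closely related Tln1 was level, at 123 ± 4.75 against 123 ± 25.1 CPM.

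**Figure D4:**
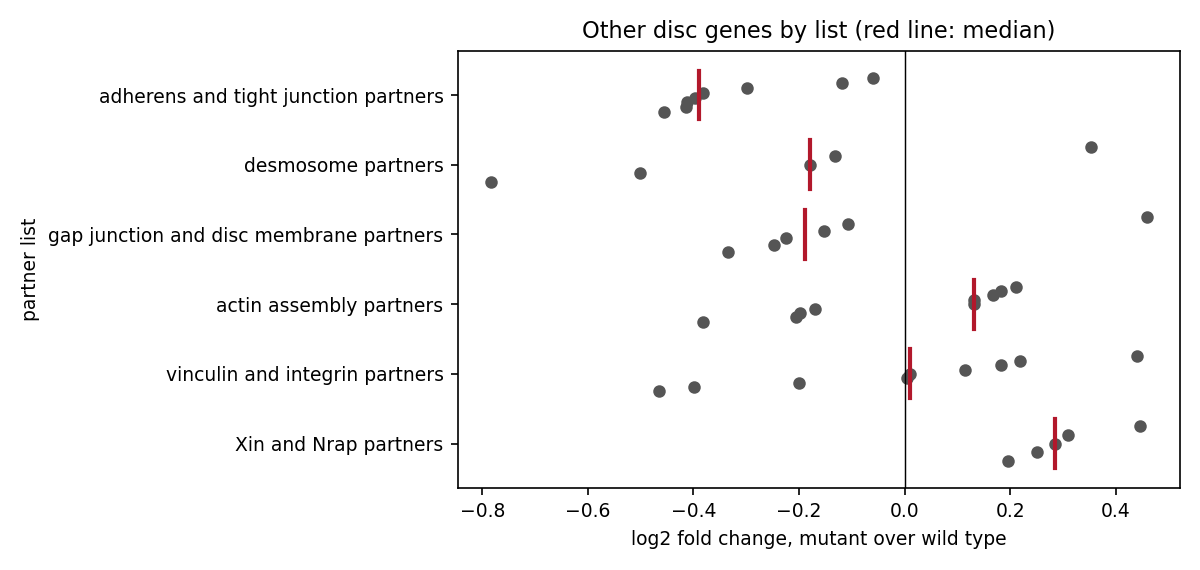
Log2 fold change of each tested partner gene, mutant over wild type, by list; each point is 1 gene and the red line is the list median. All 8 adherens and tight junction partners lie below 0 and all 5 Xin and Nrap partners above 0 under TMM scaling; with total-count scaling 2 of those 5 lie above 0, and with the GC and length correction 6 of the 8 lie below 0.

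Markers of the other cell types of the ventricle were summed as well. Over 6 genes each, fibroblast markers ranged from 825 to 984 CPM in the mutants and from 853 to 1050 in the wild types. Endothelial markers ranged from 462 to 590 and from 512 to 584, smooth muscle and pericyte markers from 338 to 378 and from 328 to 360, and macrophage markers from 62.8 to 76.3 and from 63.2 to 75.7. Mesothelial markers, over 4 genes, ranged from 6.59 to 6.62 and from 7.39 to 9.25. The sums hide genes that went opposite ways. By log2 fold change, Col3a1 was at -0.77 and Dcn at 0.56 among fibroblast markers, and Acta2 at -0.75 and Rgs5 at 0.64 among smooth muscle and pericyte markers. No marker of these lists was at 0 reads in all libraries. Cdh2, Vcl, Enah and Jup are also used by cells other than cardiomyocytes, and the share of their reads from each cell type was not tested.

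**Figure D5:**
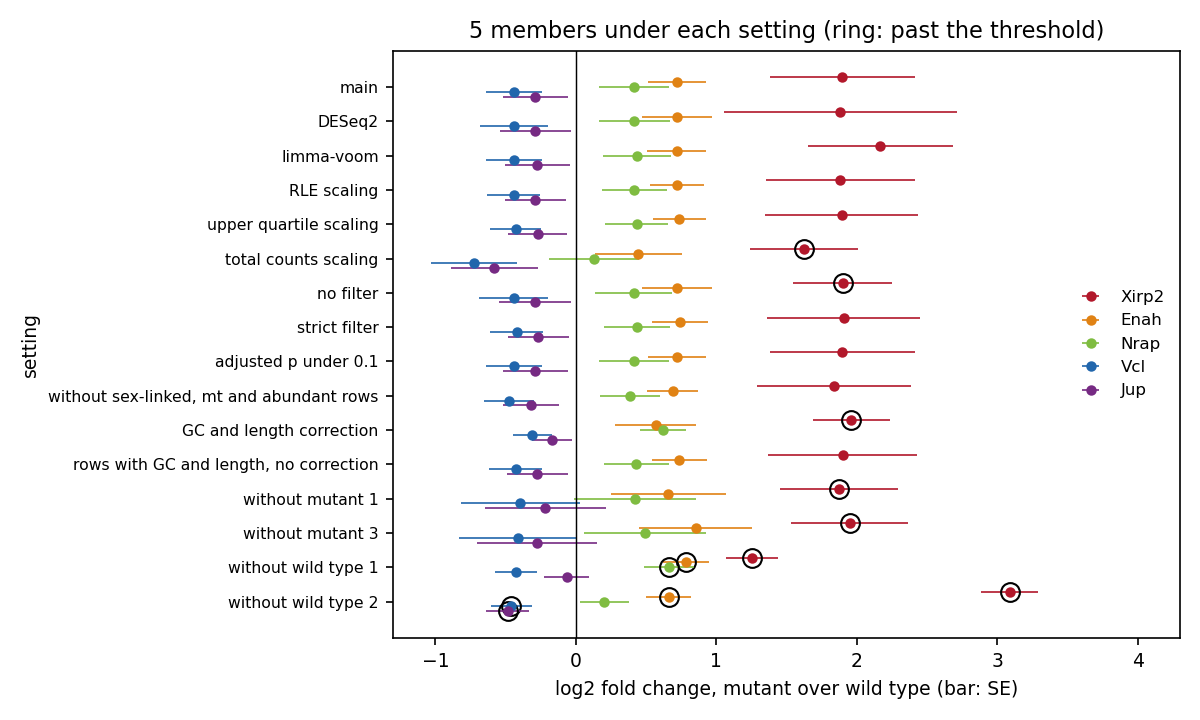
Log2 fold change of 5 of the genes, mutant over wild type, under the settings of the text (main) and 15 alternatives; bars are SE and rings mark an adjusted p past the threshold of that setting. Xirp2 is to the right of 0 throughout, from 1.25 to 3.09, and the rings of Enah, Nrap, Vcl and Jup are at the 2 settings that leave out a wild type.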

How the data were processed

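The submitters' processing notes name TopHat 1.2.0, Cufflinks and the mm9 mouse build; the sources used here do not give how reads were assigned to rows, the use of strand or the annotation. Per the file headers, the deposited table holds a raw read count per row and library, which was the input here. It also holds the authors' normalised value, which equals CPM, and for every 2 libraries the authors' ratio with the authors' p-value (test not stated). The ratios are quoted for Xirp2 only. The main test on the counts was quasi-likelihood in edgeR 4.0.16 under R 4.3.3, after filterByExpr and TMM scaling, with all 4 libraries and no covariate; p-values were adjusted by Benjamini-Hochberg over 16128 rows, two-sided. Levels are TMM-scaled CPM. The p-values set the difference of the groups against the spread between 2 hearts per group, moderated by a spread shared over all tested rows. Alternatives were DESeq2 1.42.0, limma 3.58.1 (voom), other scalings, filters (none, or 50 reads in 2 libraries), a threshold of 0.1, removal of sex-linked, mitochondrial and abundant rows (above 1% of a library), a loess correction of GC content and transcript length (81.4% of tested rows had both), and leaving out each library. The script was tested on simulated data. Start positions are printed counted from 1.

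The genes, the partner lists and the marker lists were chosen with earlier results of these data known. All 10 genes are named; each partner list adds up to 4 called genes or, with none called, its 2 genes with the lowest p. Dsc2, Perp, Des, Vasp, Evl, Tln1, Tnnt3, Tnni2, Myh1, Pvalb, Myh4, Myl7 and Habp2 are named outside that rule, after their values were seen.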

Additional observations from a re-analysis of the deposited data

How the results depend on the processing

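With the settings of the report 21 of 16128 rows passed (17 higher, 4 lower). The count was 227 with DESeq2, 156 with total-count scaling (76 higher, 80 lower), 317 with no filter, 69 at a threshold of 0.1, 3 without sex-linked, mitochondrial and abundant rows, 61 with the GC and length correction, and 63 to 3675 when a library was left out. Of the 10 genes, 0 passed with those settings; 1, Xirp2, passed with total-count scaling (adjusted p = 0.0260), with no filter (0.00189) and with the GC and length correction (0.0474), and 1 to 4 passed when a library was left out. With total-count scaling, with no filter and with the GC and length correction, the SE of Xirp2 was 0.386, 0.355 and 0.275. It was 0.516 with the settings of the report. The same rows as in that correction, left uncorrected, were added after seeing the data and gave 0 of the 10. Of the partners, 0 passed, and 0 to 9 when a library was left out, 9 without wild type 1 and 9 without wild type 2, where 12.2% and 22.0% of all tested rows passed. With total-count scaling the median of all rows was -0.28, and 3 of the 10 genes were above 0 instead of 5; signs turned for Dsp (-0.16) and Pkp2 (-0.24). Signs also turned for Xirp1 with the GC and length correction (0.087), and when a library was left out, where Pkp2 ran from -0.033 (without mutant 3) to 0.21 and Gja1 from -0.27 to 0.18 (without wild type 2). These genes had intervals across 0 with the settings of the report, and the cause of each change was not tested. No paired analysis was possible because the labels give no litter, day or batch that would join a mutant to a wild type. Where 1 library remained in a group, the spread came from the other group and was drawn towards a value shared over all tested rows. It is then not the spread of the single gene.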

Other observations

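The 4 genes whose profile over the 4 libraries was most like that of Xirp2, by the root-mean-square difference of centred log2 CPM, were Neb (0.30), Lrrcc1 (0.31), Postn (0.37) and Bche (0.38). Neb, the giant thin-filament gene nebulin, had 327 and 171 reads in mutant 1 and mutant 3 and 25 and 121 in wild type 1 and wild type 2. Postn, the matricellular gene periostin, had 1727, 1263, 319 and 544 reads in the same order. All 4 were higher in both mutants than in both wild types, which the choice by likeness to Xirp2 largely set in advance. None passed the test (edgeR adjusted p from 0.125 to 0.399), and with 4 libraries likeness of profile is a description.

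Nebl, the cardiac nebulette gene of the nebulin family, chosen after its values were seen, also had few reads in wild type 1. It had 1941 and 1763 reads in mutant 1 and mutant 3, 640 in wild type 1 and 2526 in wild type 2, so the mutants lay between the wild types. Its log2 fold change was 0.21 ± 0.56 (SE, adjusted p = 0.919), 1.65 without wild type 2 and -0.50 without wild type 1.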
